A study of Mus musculus with 32 samples.

Results

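RNA recovered from brain homogenate with an antibody against the haemagglutinin (HA) epitope was compared with RNA recovered with an isotype control (IgG) in the Sall1-CreER line. The comparison takes every library of this line that was precipitated directly from homogenate, 4 with anti-HA and 4 with IgG, which makes 8 of the 32 libraries of the series. The HA and IgG libraries come from the same 4 mice, numbered 7, 9, 17 and 21. The mice were of strain C57BL/6 with the genotype Sall1-CreER:RPL22-HA, and at an age of 4 to 6 weeks all had been gavaged every other day, 4 times in all, with 5 mg of tamoxifen. The sources used here do not give the age at collection. Brains of perfused mice were homogenised with cycloheximide and cleared by centrifugation, and the supernatant received 10 µg of anti-HA antibody or of mouse IgG1. Every library of the comparison, the IgG controls included, thus carries both Sall1-CreER and the tagged allele after tamoxifen, and no mouse without Cre enters it. The 4 HA and 4 IgG homogenate libraries of the Cx3cr1-CreER:RPL22-HA line, treated alike, serve only for a test of whether enrichment differs between the lines.

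RiboTag is a conditional allele of the ribosomal protein gene Rpl22 that gives an HA-tagged ribosome once Cre has removed the native last exon. Anti-HA precipitation then recovers polysomes and their mRNA from cells in which Cre was active, and IgG recovers what binds beads and antibody without a tag. Cre here is fused to a tamoxifen-dependent receptor and is expressed under the control of Sall1. SALL1 is a zinc finger transcription factor that microglia express among the macrophages of the brain, and it also acts in the development of neural and kidney tissue. The cell types read below are microglia, the resident macrophages; astrocytes, which clear glutamate and potassium; oligodendrocytes and their precursors, which make myelin; ependymal cells, which line the ventricles; neurons; and the endothelial and mural cells of vessels.

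Libraries held from 1894943 to 3027342 gene counts in HA and from 704183 to 4047465 in IgG. Gene counts made up 86.0 to 87.1% of the total in the file header in HA and 73.8 to 80.7% in IgG, and the part of this difference in the results was not tested. The levels below are counts per 1e6 gene counts after TMM scaling (CPM), and where 4 values are listed they belong to mice 7, 9, 17 and 21 in that order. Fold changes are log2 of HA over IgG with their SE over n = 4 against 4 libraries. A gene was called where its p from edgeR's quasi-likelihood test was under 0.05 after Benjamini-Hochberg adjustment over all genes tested. Adjusted p values of single genes are from this test. Values are shares of a library, so that a lower value does not by itself show a smaller amount of RNA in the precipitate, whose yield the sources used here do not give. HA and IgG libraries come from the same mice, so a fold change between them does not compare brains with more or fewer cells of a type. In such bulk samples, the number of cells of a type that carried the tag and the RNA each gave cannot be told apart.

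The genes behind the line and the tag were both higher in HA. Sall1 (chromosome 8, 91551143 to 91568061, mm9) had 26.7, 38.3, 36.9 and 36.1 CPM in HA and 6.30, 12.5, 12.5 and 19.4 CPM in IgG, a fold change of 1.38 ± 0.26 (adjusted p = 1.17e-04). Rpl22, the gene of the tagged protein, had 333, 364, 346 and 388 CPM in HA and 128, 113, 102 and 119 CPM in IgG, a fold change of 1.63 ± 0.15 (adjusted p = 2.68e-08). For both genes every HA library lay above every IgG library, which held for 32.3% of all genes tested. Cx3cr1, the fractalkine receptor gene of microglia, rose by 0.69 ± 0.17 (adjusted p = 0.00170), from 51.8 ± 6.14 CPM in IgG to 84.2 ± 12.9 CPM in HA (mean ± SD, n = 4). Without TMM scaling, Cx3cr1 lay at 0.28 and was not called (adjusted p = 0.159).

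The 4 genes chosen to stand for the glial content of the precipitate separated the antibodies in every library. Mlc1, a membrane protein gene of astrocyte endfeet (chromosome 15, 88786314 to 88808983), had 2374, 2134, 2239 and 2041 CPM in HA and 157, 203, 199.8 and 217 CPM in IgG. Mog, the myelin oligodendrocyte glycoprotein gene (chromosome 17, 37147685 to 37160343), had 607, 486, 539 and 570.0 CPM in HA against 52.9, 55.3, 46.3 and 39.3 CPM in IgG. Olig1, a transcription factor gene of the oligodendrocyte lineage (chromosome 16, 91270014 to 91272184), had 2108, 1284, 1841 and 1459 CPM against 171, 195, 182 and 158 CPM. Mt2, which encodes a metal-binding metallothionein (chromosome 8, 96696518 to 96697467), had 9587, 8012, 8944 and 7339 CPM against 354, 334, 259 and 335 CPM. The lowest HA value of each of the 4 genes was several times its highest IgG value, and the fold changes were 3.49 ± 0.16, 3.50 ± 0.17, 3.24 ± 0.18 and 4.72 ± 0.17. These genes were chosen with results of these data known and are given as a description of the precipitate.

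**Figure D1:**
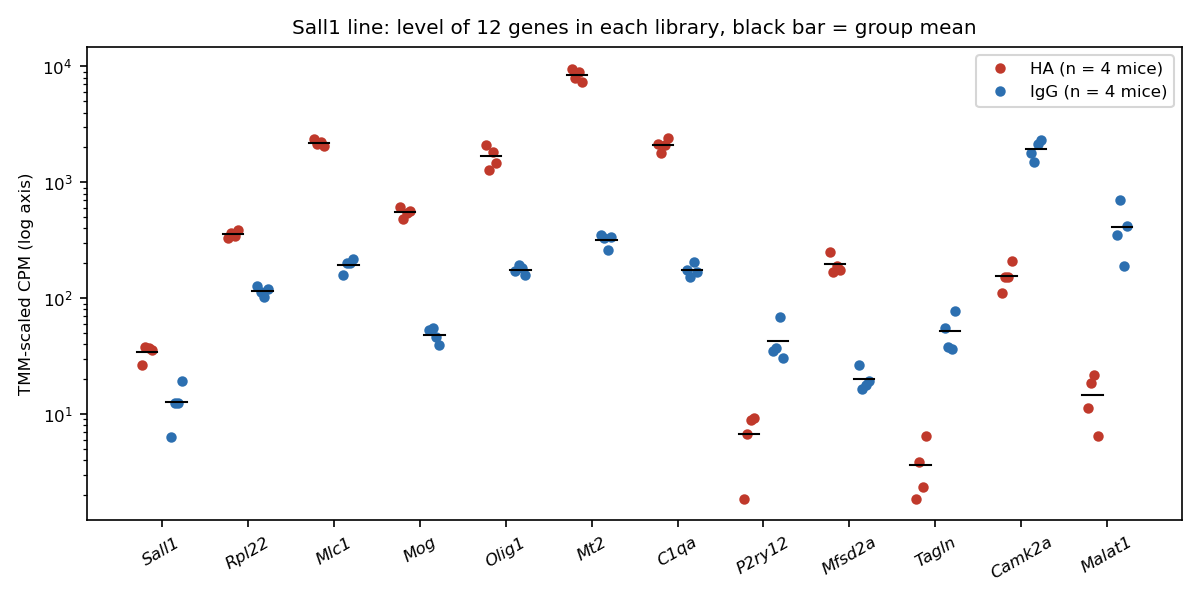
Level of 12 genes in each of the 8 libraries (vertical log axis, TMM-scaled CPM; red, 4 HA libraries; blue, 4 IgG libraries; black bar, group mean). Sall1, Rpl22, Mlc1, Mog, Olig1, Mt2, C1qa and Mfsd2a lie higher in HA, and P2ry12, Tagln, Camk2a and Malat1 lie lower, with no overlap between the groups for any of the 12. Of all genes tested, 32.3% had all HA libraries above all IgG libraries and 31.7% the reverse.

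Most genes differed between the antibodies, which sets the background for every count below. Of 11545 genes tested, 4064 were called higher (35.2%) and 4166 lower (36.1%), so that 71.3% were called in one direction or the other. All HA libraries lay above all IgG libraries for 32.3% of the genes tested and all IgG libraries above all HA libraries for 31.7%. The median fold change of all genes tested was -0.03, and without TMM scaling it was -0.44, where the calls split into 2869 higher and 5427 lower. Counts of called members are read against those shares, and medians against the median of all genes.

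Short transcripts lay on the HA side and long ones on the IgG side. In 10 equal classes of transcript length, the median fold change fell at every step, from 1.34 in the class of 60 to 1133 bases to -1.52 in that of 6426 to 83436 bases. In the shortest class 77.1% of genes were called higher and 6.06% lower, and in the longest 4.76% and 77.2%. The shortest class took 24.3 ± 0.0533% of gene counts in HA and 10.6 ± 0.682% in IgG (SD, n = 4), whereas the longest took 3.23 ± 0.128% and 10.3 ± 0.221%. Across the 11545 genes Spearman's rho was -0.527 with length and 0.257 with GC content, as a description across genes that share the same libraries. For this reason list medians are also given with fold changes adjusted for length, from a fit that keeps the mouse as a block and is called length-adjusted here. This fit kept 5706 of the 8230 calls and called 299 genes in the opposite direction. The cause of this trend was not tested.

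**Figure D2:**
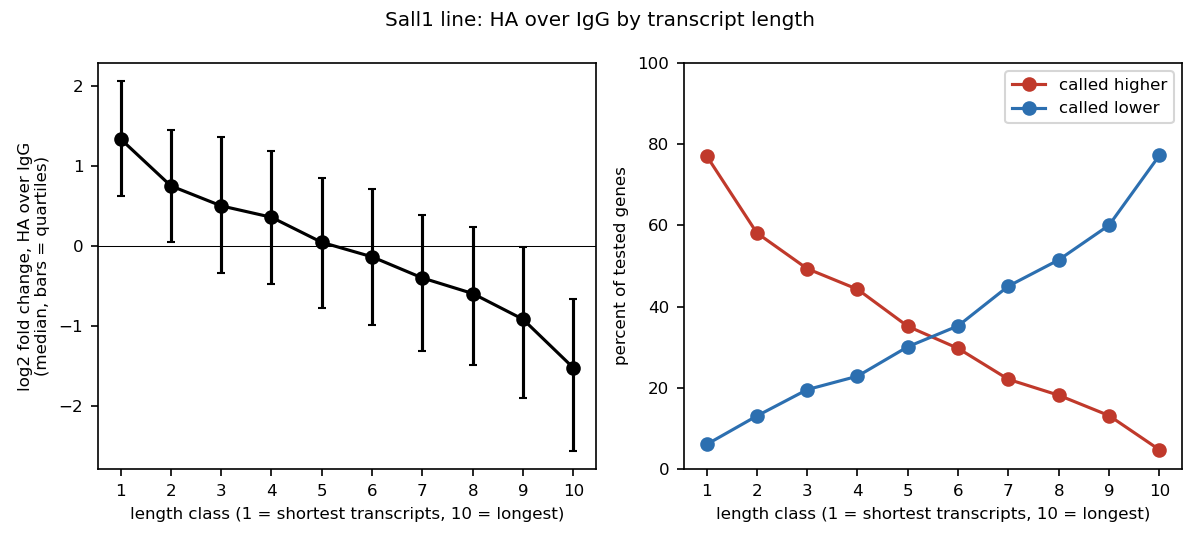
HA over IgG by transcript length in 10 equal classes of the genes tested. The left panel gives the median log2 fold change with quartiles, which falls from 1.34 to -1.52, and the right panel the percent of genes called higher (red) and lower (blue) in each class.

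Most tested astrocyte genes were higher in HA, in every functional group. Of the transporters, channels and receptors, 18 of 23 tested members were higher and 2 lower, with a median of 2.09 (length-adjusted 2.07). Gpr37l1, a receptor gene of astrocytes, rose by 2.30 ± 0.23, and the neurotensin receptor gene Ntsr2 by 2.91 ± 0.17. Slc4a4, which encodes a bicarbonate cotransporter, was lower at -0.95 ± 0.19, a direction that turned with adjustment for length (0.44). The glutamate receptor gene Grm3 was also lower (-1.28 ± 0.35), its groups overlapped, and its length-adjusted value was -1.01. The other 3 members were not called. They included the water channel gene Aqp4 (-0.42, adjusted p = 0.107) and the connexin gene Gja1 (0.09, adjusted p = 0.76), named after their values were seen.

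Metabolic genes of astrocytes moved together, with 12 of 14 higher and 0 lower at a median of 2.14 (length-adjusted 1.68). Aldoc, the brain form of the glycolytic enzyme aldolase, had 4494, 2967, 4135 and 5594 CPM in HA and 1416, 1501, 1697 and 1701 CPM in IgG, a rise of 1.44 ± 0.17. Aldh1l1, a folate enzyme gene widely used to mark astrocytes, rose by 2.25 ± 0.18 and Acsbg1, a fatty acid activating enzyme gene, by 2.57 ± 0.16. Every HA library of these 3 genes lay above every IgG library. Glul, which encodes glutamine synthetase, was not called (0.47 ± 0.21, adjusted p = 0.0572), with overlapping groups. With the mouse as a block Glul was called (adjusted p = 0.00944), and so it was without HA of mouse 9 (0.0410), HA of mouse 17 (0.0487) or IgG of mouse 7 (0.0129). Glud1, the glutamate dehydrogenase gene, was higher by only 0.45 ± 0.14, and that call ended without TMM scaling (adjusted p = 0.790).

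Of 10 transcription factor genes of astrocytes 8 were higher, at a median of 1.60 (length-adjusted 1.65). Id3, an inhibitor of basic helix-loop-helix factors, rose by 3.46 ± 0.17, Hes5, a target of Notch, by 2.93 ± 0.18, and Emx2, a homeobox gene of the dorsal forebrain, by 3.20 ± 0.27. Sox9, a determinant of astrocyte fate, rose by 1.19 ± 0.19. The nuclear factor I genes Nfia and Nfix were lower (-1.22 ± 0.22 and -0.90 ± 0.17), and both turned positive when adjusted for length (0.55 and 0.26, the second not called). Secreted and matrix genes were higher in 14 of 15 cases at a median of 2.14 (length-adjusted 2.22), and the list took 4.05 ± 0.262% of gene counts in HA against 0.845 ± 0.107% in IgG. That share is not of astrocytes alone, since microglia are also known to express some members, as given below. In HA of the Cx3cr1 line the list took 7.06 ± 0.305%. Apoe, the apolipoprotein E gene, reached 19743, 14604, 15668 and 16377 CPM in HA and 1627, 1609.7, 1512 and 1428 CPM in IgG (3.42 ± 0.15). Htra1, a secreted serine protease gene, rose by 4.32 ± 0.17, and Clu, which encodes the chaperone clusterin, by 2.03 ± 0.16. Gfap, the intermediate filament gene of reactive astrocytes, rose by 1.16 ± 0.31 but was not called with adjustment for GC content and length (adjusted p = 0.263), while Vim, another intermediate filament gene, was lower (-0.99 ± 0.18). The calcium-binding protein gene S100b rose by 3.45 ± 0.24, and 6 of the 13 reactive genes passed the low-count filter in all.

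All 18 myelin structural genes were called higher, with fold changes from 1.02 to 3.50 and a median of 2.03 (length-adjusted 1.69, with 18 still higher). Mbp, the myelin basic protein gene, had 5356, 6367, 5449 and 7729.6 CPM in HA and 2192, 2012, 2838 and 2056 CPM in IgG (1.45 ± 0.16). Cnp, which encodes a myelin phosphodiesterase, rose by 1.90 ± 0.16. Together the list took 1.42 ± 0.0937% of gene counts in HA and 0.565 ± 0.0595% in IgG.

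Other genes of mature oligodendrocytes were higher in 17 of 24 cases and lower in 4, at a median of 1.47 (length-adjusted 1.11). Apod, an apolipoprotein gene, rose by 3.69 ± 0.18, Ptgds, the prostaglandin D synthase gene, by 3.06 ± 0.15, and the kallikrein gene Klk6 by 3.51 ± 0.19. Among the exceptions, Enpp2, which encodes the secreted phospholipase autotaxin, fell from 337 ± 144 to 41.5 ± 12.7 CPM (-3.00 ± 0.32). Aspa, the aspartoacylase gene, lay at -2.67 ± 0.37 and Tubb4a, a tubulin gene of myelinating cells, at -1.26 ± 0.16. All HA libraries of Enpp2, Aspa and Tubb4a lay below all IgG libraries, and the 3 genes were also lower with adjustment for length (-2.78, -3.51 and -1.66). Other cell types can also express genes of this list, for example choroid plexus epithelium and neurons in the case of Enpp2 and Tubb4a. The part of other cells in the values of the list, higher or lower, was not tested.

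Of the precursor genes, 13 of 17 passed the filter, 7 were higher and 2 lower, with a median of 1.84. Adjusted for length, 9 were higher and 3 lower at a median of 1.29. Leaving out 1 library moved these values, and the median was 1.18 without HA of mouse 7, 1.25 without HA of mouse 9, 1.27 without HA of mouse 17, 1.08 without HA of mouse 21 and 1.25 without IgG of mouse 9. Without HA of mouse 7, 4 precursor genes were lower, and without IgG of mouse 9, 5. Sox10, a transcription factor gene of the whole lineage, rose by 2.38 ± 0.22, the complement-like gene C1ql1 by 2.35 ± 0.20 and the retinaldehyde-binding protein gene Rlbp1 by 3.20 ± 0.22. In contrast, Ptprz1, a receptor phosphatase gene, fell from 88.2, 29.1, 65.4 and 48.8 CPM in IgG to 3.11, 3.40, 4.20 and 5.37 CPM in HA (-3.75 ± 0.35), and Megf11 was lower (-3.15 ± 0.31). Adjustment for length left both lower (-2.21 and -2.12). The other 4 tested precursor genes were not called. They included Pdgfra (0.43, adjusted p = 0.123) and Cspg4 (-0.44, adjusted p = 0.0746), named after their values were seen. Of the newly formed oligodendrocyte genes, 5 of 9 were higher and 3 lower, at a median of 1.58 (length-adjusted 1.77). Gpr17, a receptor gene of committed precursors, rose by 2.50 ± 0.19 and the sialidase gene Neu4 by 1.99 ± 0.34, whereas Tcf7l2, a mediator of Wnt signalling, was lower (-2.01 ± 0.28). Gpr17 lies within Lims2 on the other strand, and since the sources used here do not state whether counting used strand, reads of the 2 genes cannot be told apart.

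Metallothioneins, small cysteine-rich proteins that bind zinc and copper, had the highest median of the lists tested, 3.75, with all 3 tested members called higher (length-adjusted 2.22). Mt1, the neighbour of Mt2 (chromosome 8, 96702989 to 96704227), had 10249.6, 9354, 8442 and 8290.5 CPM in HA and 826, 602, 599.6 and 662 CPM in IgG, a rise of 3.75 ± 0.17 (adjusted p = 1.43e-11). Mt3, the brain-enriched member, had 1719, 1358, 1161 and 1160.1 CPM in HA and 431, 127, 284 and 349 CPM in IgG, a rise of 2.19 ± 0.29 (adjusted p = 7.28e-06). Mt4 did not pass the filter. The groups did not overlap for any of the 3 genes tested, and together they took 1.64 ± 0.158% of gene counts in HA and 0.148 ± 0.0250% in IgG. Per kb of transcript, Mt1 stood at 16916 CPM in HA and Mt2 at 15373 CPM, close to Cst3 at 16423 CPM, while Mt3 stood at 2532 CPM. With transcripts of 537, 551 and 533 bases, the 3 belong to the shortest class, and their length-adjusted values were 2.22, 3.19 and 0.74.

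Metallothionein transcription is known to respond to metals through metal response elements, which MTF1 binds. The 250 bases before the RefSeq start of each gene (GRCm38.p6, plus strand) are printed as a description of the 3 genes. Capitals mark matches to the core letters TGCACNC or TGCGCNC on either strand.
Mt1: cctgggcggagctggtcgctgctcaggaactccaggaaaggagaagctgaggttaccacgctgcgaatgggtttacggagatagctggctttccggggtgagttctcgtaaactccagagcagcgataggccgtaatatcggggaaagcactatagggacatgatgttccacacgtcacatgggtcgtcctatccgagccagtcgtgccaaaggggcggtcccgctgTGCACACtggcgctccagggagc
Mt2: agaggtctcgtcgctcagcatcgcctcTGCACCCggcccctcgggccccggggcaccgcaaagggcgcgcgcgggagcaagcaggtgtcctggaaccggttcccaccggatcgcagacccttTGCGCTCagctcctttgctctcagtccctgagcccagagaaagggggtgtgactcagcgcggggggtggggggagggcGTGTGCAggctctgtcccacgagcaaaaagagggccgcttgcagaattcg
Mt3: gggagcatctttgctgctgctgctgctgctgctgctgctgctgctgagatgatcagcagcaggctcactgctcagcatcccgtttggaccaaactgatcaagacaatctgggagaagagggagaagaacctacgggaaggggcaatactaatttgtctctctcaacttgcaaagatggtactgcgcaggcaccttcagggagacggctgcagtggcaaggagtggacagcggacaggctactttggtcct
These windows are chr8:94178839-94179088, chr8:94172368-94172617 and chr8:94152357-94152606, and they hold 1, 3 and 0 matches, none of which overlap. Of 32851 RefSeq windows of the same length, 10.4% hold the first set of letters, 12.5% the second, 21.4% either one and 1.26% at least 3 matches. The window depends on the annotated start, and sequence downstream of it was not searched. A match is a description of the letters, and no binding was measured here. Whether the letters bear on the fold changes was not tested.

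The S100 family, small calcium-binding proteins that glia express, was also high in HA, with 7 of 8 tested members higher, 1 lower and a median of 3.49 (length-adjusted 2.10). S100a13 had 1203, 1087, 1335 and 1656 CPM in HA and 65.5, 50.2, 64.8 and 48.8 CPM in IgG (4.53 ± 0.19). S100a4 rose by 4.65 ± 0.27, S100a1 by 3.57 ± 0.20 and S100a16 by 3.17 ± 0.16. S100a5, a gene of olfactory neurons, was the exception at -3.59 ± 0.70 (-4.66 without HA of mouse 17), and it fell from 14.6 ± 10.5 to 1.01 ± 1.23 CPM.

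Microglial genes were higher in HA as well, apart from a few. Of 30 tested members 25 were higher and 4 lower, with a median of 1.86 (length-adjusted 1.81), and Mertk and Hpgds did not pass the filter. Their share of gene counts was 0.707 to 0.794% in HA and 0.128 to 0.172% in IgG. C1qa, the gene of a complement C1q chain (chromosome 4, 136451831 to 136454759), had 2150.1, 1787, 2109 and 2408 CPM in HA and 174, 154, 205 and 167 CPM in IgG. C1qb and C1qc, the genes of the other chains of the complex, rose by 3.42 ± 0.19 and 3.35 ± 0.19. Tyrobp, which encodes the signalling adaptor of TREM2, rose by 4.12 ± 0.20 from 30.1 ± 5.42 to 532 ± 109 CPM, the highest fold change of the list.

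The exceptions were 3 purinergic or related receptor genes and Ly86. P2ry6, another purinergic receptor gene of the list, was higher (2.095, adjusted p = 1.50e-05) and was named after its values were seen. P2ry12, the ADP receptor gene that marks homeostatic microglia (chromosome 3, 59020193 to 59066753), had 1.86, 6.79, 8.87 and 9.21 CPM in HA and 35.3, 37.5, 69.3 and 30.4 CPM in IgG, and fell by 2.65 ± 0.35 (adjusted p = 3.53e-06). P2ry13, its neighbour, lay at -1.05 ± 0.32 (adjusted p = 0.00756). Gpr34, a lysophospholipid receptor gene (chromosome X, 13209895 to 13217984), had 0, 0.485, 1.40 and 0.768 CPM in HA and 7.56, 6.25, 13.7 and 5.97 CPM in IgG (-3.51 ± 0.55). Every HA library of these 3 genes lay below every IgG library. Ly86, named after its values were seen, lay at -0.73 ± 0.26 (adjusted p = 0.0172), a call that ended without IgG of mouse 17 (adjusted p = 0.126). With adjustment for length all 4 stayed lower (-2.92, -1.32, -4.02 and -1.90). The GC content of their transcripts was 39.6, 44.7, 36.4 and 45.4%, against a list median of 52.7% and a range of 36.4 to 59.5%. With adjustment for GC content and length their values were -1.81, -0.98, -2.32 and -1.60.

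Both P2ry12 and P2ry13 lie inside Med12l on the other strand, and Gpr34 lies inside Cask on the other strand. Med12l, a mediator subunit gene, stood at 0.243 CPM in HA and 14.4 CPM in IgG, and Cask, a synaptic scaffold gene, at 27 and 46.6 CPM; both were named after the values of their neighbours were seen. Since the strand setting of the counts is not given, the share of host gene reads in these 3 genes cannot be told apart from their own. In the Cx3cr1 line, over the 16 homogenate libraries, the same genes had fold changes of 0.97 ± 0.31 (P2ry12), 2.83 ± 0.27 (P2ry13) and 0.70 ± 0.38 (Gpr34), against 7.16 ± 0.21 for C1qa. The low position of these receptors relative to C1qa was thus present in both lines, and the difference of each between lines is given below.

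**Figure D3:**
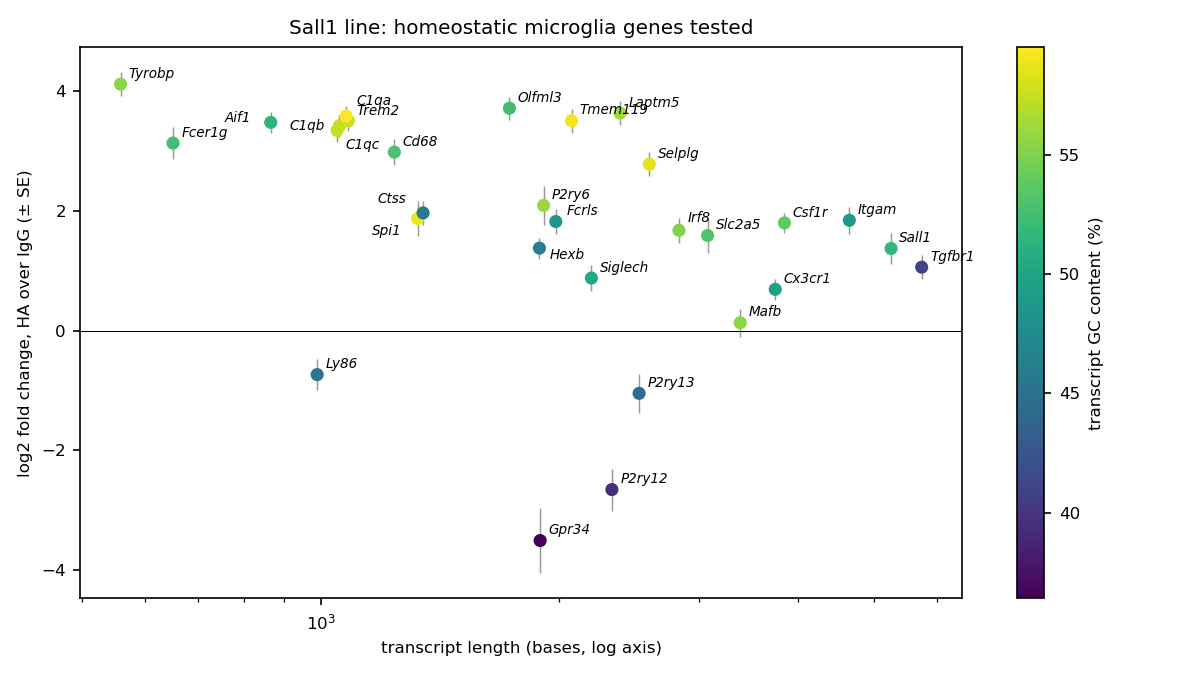
Homeostatic microglia genes tested in the Sall1 line, with transcript length in bases on a log axis and the log2 fold change of HA over IgG with its SE on the vertical axis. Colour gives transcript GC content, and P2ry12, P2ry13, Gpr34 and Ly86 lie below 0.

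Other macrophages and blood cells left little signal. Of 13 listed genes of perivascular or border macrophages only the scavenger receptor gene Stab1 passed the filter, and it was not called (-0.05 ± 0.24, adjusted p = 0.855). Adjusted for length, Stab1 was called at 1.40 (adjusted p = 5.00e-05). Mrc1, the mannose receptor gene, had 8 counts over the 4 HA libraries and 31 over the 4 IgG libraries, and Pf4, the platelet factor 4 gene, had 33 and 46. Lyve1, Siglec1 and Clec4n had 0 counts in HA and only 4, 1 and 1 in IgG. Of the 13 leukocyte and erythroid genes other than globins, 6 had 0 counts in HA and none had more than 11. In IgG 3 of them had 0 counts and none had more than 19, so these counts cannot show a difference between the antibodies. The globin genes were the tested members of that list, where Hba-a1 lay at -1.09 ± 0.33 and Hbb-b1 at -0.45 ± 0.22 (adjusted p = 0.0765), with overlapping groups and with copies that share reads. Hbb-b1 was called without IgG of mouse 9 (adjusted p = 0.0153) or of mouse 17 (0.0237). MHC class II genes split, with 2 of 6 higher and 3 lower, at a median of -0.79 (length-adjusted -1.63). Without HA of mouse 21, 1 was lower. H2-DMa, which helps load peptides, rose by 2.37 ± 0.21 and H2-DMb1, its partner, by 1.73 ± 0.34, though the latter was not called when adjusted for length (0.73). H2-Aa, the gene of a classical class II chain, was lower (-1.21 ± 0.43), a call that ended without HA of mouse 7 (adjusted p = 0.0541), HA of mouse 21 (0.0841) or IgG of mouse 21 (0.0766). H2-Ab1, the gene of its partner chain, had 5.59, 2.43, 0.467 and 4.99 CPM in HA and 17.6, 14.3, 15.8 and 13.9 CPM in IgG (-2.18 ± 0.41).

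Genes of ependymal cells and of fibroblasts and leptomeninges lay on the glial side. Of the ependymal genes 16 of 22 passed the filter, and 15 were higher and 0 lower at a median of 1.90. Their transcripts are short, with a median of 782 bases, and when adjusted for length 8 were higher at a median of 0.96. Rarres2, the chemerin gene, rose by 3.01 ± 0.31, Mia by 2.67 ± 0.31 and Ccdc153, a gene of motile cilia, by 2.29 ± 0.38. Of 10 fibroblast and leptomeningeal genes tested, 8 were higher (median 1.98, length-adjusted 1.75). The median of these genes was 1.35 without HA of mouse 9 and 1.32 without IgG of mouse 9, the lowest values on leaving out 1 library. Slc6a13, a GABA and taurine transporter gene, rose by 2.88 ± 0.22, the small proteoglycan gene Fmod by 2.82 ± 0.18, and Igf2, an insulin-like growth factor gene, from 55.4, 51.2, 60.9 and 105 CPM in IgG to 370.5, 292, 259 and 456 CPM in HA (2.33 ± 0.24). Dcn, the decorin gene and an abundant product of fibroblasts, was not called (0.25 ± 0.26, adjusted p = 0.397).

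Of the choroid plexus genes 4 of 10 were higher and 3 lower, near the background shares of 35.2% and 36.1%. Their median of 0.26 became -0.16 without TMM scaling and 0.33 when adjusted for length. Leaving out any HA library, or IgG of mouse 9, gave 5 lower genes, and the median then lay between -0.23 (without HA of mouse 7) and 0.08 (without HA of mouse 17). Ttr, which encodes the thyroid hormone carrier transthyretin, had 4190.2, 4521, 3229 and 3073 CPM in HA and 1136, 682, 679.6 and 1245 CPM in IgG (2.00 ± 0.21), and the folate receptor gene Folr1 rose by 1.82 ± 0.27. Folr1 was not called once GC content and length were adjusted for (adjusted p = 0.0531). F5, the coagulation factor V gene, was at 0 in all HA libraries. Against the limit that 0 allows, 3 counts over the group, it was at least 20.5-fold lower. Such a limit covers counting noise in the pooled libraries and leaves out the spread between mice. Kl, the klotho gene, was lower (-2.16 ± 0.49, or -2.85 without HA of mouse 21). Among tanycyte genes 2 were higher and 2 lower of 5, also near those shares (median -0.05, length-adjusted -0.96). Nes, the intermediate filament gene of neural stem cells, lay at -2.03 ± 0.43. Of the neurogenic and cycling genes 5 of 10 passed the filter, where the high-mobility group gene Hmgb2 rose by 2.96 ± 0.39 and the neuronal tubulin gene Tubb3 fell from 1037 ± 137 to 211 ± 73.4 CPM (-2.30 ± 0.20).

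Endothelial genes were among the lowest lists, with 17 of 22 lower, 3 higher and a median of -3.09 (length-adjusted -3.25). Tek and Slco1a4, named after their values were seen, were also at 0 in all HA libraries, at least 24.5-fold and 32.1-fold lower by the same limit. With Tek and Slco1a4 at that bound the endothelial median was also -3.09, and with F5 at its bound the choroid plexus median was also 0.26. The clearest exception was Mfsd2a, which encodes a lipid transporter of the blood-brain barrier (chromosome 4, 122624094 to 122638431). It had 251, 169, 188 and 174 CPM in HA and 26.5, 16.3, 17.9 and 19.4 CPM in IgG, a rise of 3.35 ± 0.20 (adjusted p = 2.16e-10) that was 2.87 when adjusted for length. Ramp2, a receptor-modifying protein gene, rose by 1.34 ± 0.22, but was not called when adjusted for length (0.04). Slc2a1, the glucose transporter gene of the barrier, lay at 0.08 ± 0.20 (adjusted p = 0.741) with overlapping groups. The third gene called higher was Ly6e (0.46 ± 0.15, adjusted p = 0.0121). That call ended without TMM scaling (adjusted p = 0.790), with adjustment for length (0.854), without HA of mouse 9 (0.0611) and without IgG of mouse 21 (0.0652).

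Mural genes divided evenly, with 6 higher and 6 lower of 12 (median -0.05, length-adjusted -0.23). Those higher included Vtn, the vitronectin gene, with 393, 354, 345 and 601 CPM in HA and 109.6, 112, 66.0 and 76.1 CPM in IgG (2.23 ± 0.22). Pdgfrb, the growth factor receptor gene of pericytes, rose by 1.43 ± 0.21, the potassium channel gene Kcnj8 by 2.28 ± 0.34 and Higd1b by 2.04 ± 0.31, the last not called when adjusted for length (0.59). Tagln, which encodes transgelin of smooth muscle, had 1.86, 3.88, 2.34 and 6.53 CPM in HA and 55.4, 38.3, 36.7 and 77.6 CPM in IgG (-3.72 ± 0.36). The smooth muscle genes Acta2 and Myh11, named after their values were seen, lay at -3.27 ± 0.32 and -5.06 ± 0.46, and the pericyte gene Rgs5 lay at -1.92 ± 0.29. Tagln overlaps Pcsk7 on the other strand.

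**Figure D4:**
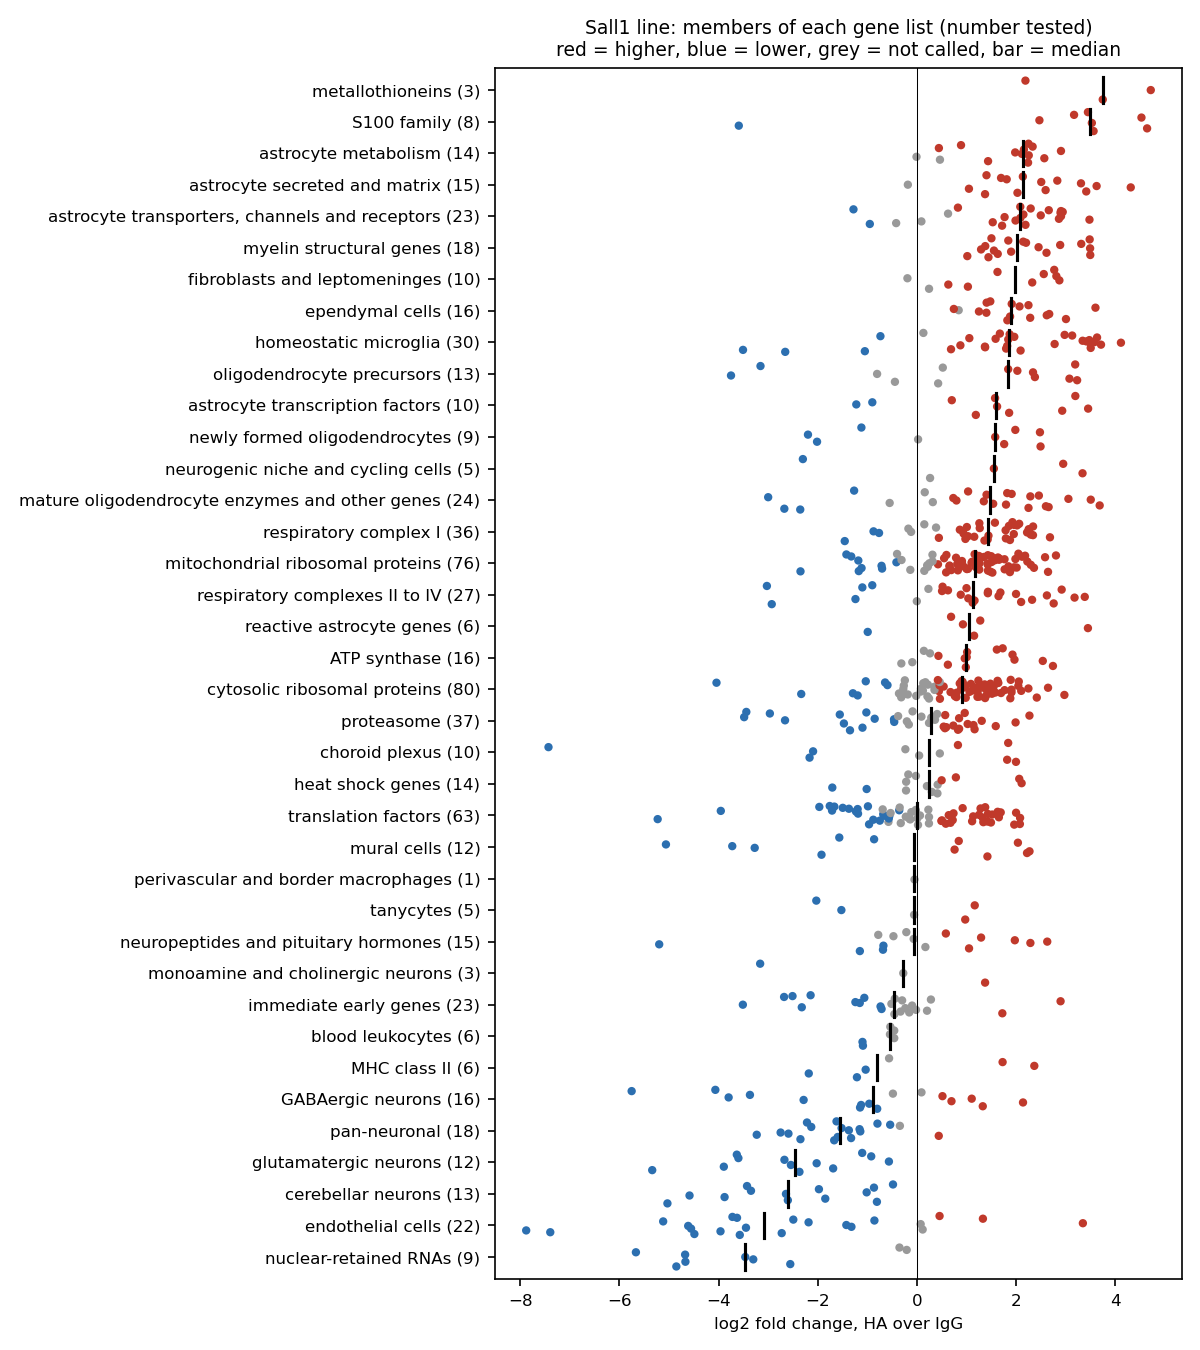
Log2 fold change of HA over IgG for each tested member of each gene list, ordered by list median (number tested in parentheses; red, called higher; blue, called lower; grey, not called; black bar, median). The points of F5, Tek and Slco1a4, at 0 in HA, are fitted values that depend on the prior count. Metallothionein, S100, astrocyte and myelin lists lie at the top, and cerebellar neuron, endothelial and nuclear RNA lists at the bottom.

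Neuronal genes were mostly lower in HA, without exception among the tested genes of excitatory and cerebellar neurons. Of pan-neuronal genes 16 of 18 were lower (median -1.56, length-adjusted -1.51), and all 12 glutamatergic genes tested were lower (median -2.45; 11 lower when adjusted for length). Camk2a, a kinase gene of excitatory synapses, had 110.0, 153, 153 and 209 CPM in HA and 1789, 1494, 2137 and 2331 CPM in IgG. Slc17a7, the vesicular glutamate transporter gene, lay at -2.37 ± 0.18 and Tbr1, a cortical transcription factor gene, at -3.89 ± 0.44 (-4.55 without HA of mouse 21). Nrgn, which encodes the postsynaptic protein neurogranin, was lower by a smaller amount (-0.56 ± 0.15), from 3416 ± 514 to 2322 ± 191 CPM. Snap25, a gene of vesicle release, lay at -1.67 ± 0.22. All 13 cerebellar genes were lower, from -5.03 to -0.48, with the granule cell receptor gene Gabra6 at -5.03 ± 0.34 and the Purkinje cell gene Pcp2 at -1.01 ± 0.17.

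Inhibitory neurons were not uniform, with 9 of 16 genes lower and 5 higher (median -0.88, length-adjusted -0.78). Slc32a1, the vesicular GABA transporter gene, had 412, 486, 422 and 334 CPM in HA and 157, 171, 173 and 152 CPM in IgG (1.33 ± 0.15, adjusted p = 4.82e-07). Vip, a neuropeptide gene of a class of interneurons, rose by 2.14 ± 0.34, and Dlx1, a transcription factor gene of interneurons that overlaps an antisense gene, by 1.11 ± 0.27. The interneuron genes Sst and Pvalb were lower (-0.96 ± 0.18 and -1.12 ± 0.19). The groups did not overlap for any of these 5 genes. With adjustment for length Slc32a1, Vip and Dlx1 lay at 1.24, 1.35 and 1.04. Of 10 monoamine and cholinergic genes 3 passed the filter, with 1 higher, 1 lower and 1 not called, near the background shares. Their median was -0.27 (length-adjusted -0.78). Th, the rate-limiting enzyme gene of catecholamine synthesis, rose by 1.38 ± 0.24, and Tph2, that of serotonin synthesis, was lower (-3.16 ± 0.54). Among 15 neuropeptide and hormone genes 6 were higher and 4 lower, near the background shares, at a median of -0.06. Adjusted for length, 3 were higher and 8 lower at a median of -0.74, and without HA of mouse 17 or of mouse 21 2 were lower. Trh and Crh, the genes of hypothalamic releasing hormones, rose by 2.63 ± 0.27 and 1.98 ± 0.27. Penk, the proenkephalin gene, rose by 1.30 ± 0.18, but was not called when adjusted for length (0.35).

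Of the noncoding RNAs listed as nuclear-retained, 7 of 9 tested were lower in HA and 2 were not called, with a median of -3.46. Malat1, a long noncoding RNA of nuclear speckles (chromosome 19, 5795690 to 5802671), had 11.2, 18.4, 22.0 and 6.53 CPM in HA and 351, 701, 189.6 and 417 CPM in IgG (-4.85 ± 0.45, adjusted p = 1.13e-06). Meg3 lay at -4.67 ± 0.58 (-4.06 without IgG of mouse 9) and Snhg11 at -4.67 ± 0.28. These are long transcripts with a median of 6981 bases, and the length-adjusted median was -1.80, with Malat1 at -3.50 and Neat1 at 0.46 (not called). The IgG libraries varied, since the list took 0.418% of gene counts in IgG of mouse 9 and 0.132 to 0.217% in the other 3, while HA ranged from 0.0184 to 0.0259%. Without that library the median of the list was -3.15.

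Housekeeping lists of short transcripts were higher in HA, and their medians were lower when adjusted for length. Cytosolic ribosomal protein genes were higher in 54 of 80 cases and lower in 7, with a median of 0.91. When adjusted for length 9 were higher and 37 lower, with a median of -0.43. Rpl41, for example, lay at 1.40 ± 0.17 and at -0.19 when adjusted, and Rps15 at 0.77 ± 0.14 and -0.77. Mitochondrial ribosomal proteins moved from a median of 1.18 to 0.01 (76 genes). Complex I of the respiratory chain, with 29 of 36 genes higher, moved from 1.44 to -0.06, and complexes II to IV from 1.13 to -0.10. Uqcr10, a complex III subunit gene, rose by 3.18 ± 0.16 (length-adjusted 1.59), whereas Uqcrc2, a core subunit gene of the same complex, lay at -2.93 ± 0.22 and -3.50. ATP synthase genes had a median of 1.00 (length-adjusted 0.21). Proteasome genes were at 0.29 (-0.12 without TMM scaling, -0.67 adjusted for length) and translation factors at 0.01 (length-adjusted -0.18). In the same fit the metallothionein, myelin structural and homeostatic microglia medians were 2.22, 1.69 and 1.81. The pan-neuronal and endothelial medians were -1.51 and -3.25. These kept their sign, as did the medians of mitochondrial ribosomal proteins and ATP synthase. The cause of these differences between lists was not tested.

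Of the stress-related lists, heat shock genes were higher in 4 and lower in 2 of 14 cases, below the background of 35.2% and 36.1% (median 0.26, length-adjusted -0.01). Hspb8, a small heat shock gene, rose by 2.12 ± 0.20, whereas Hspa1a, the classical inducible gene, was not called (0.42 ± 0.67, adjusted p = 0.598). Immediate early genes, which stimulation induces within minutes, were higher in 2 and lower in 10 of 23 cases (median -0.45, length-adjusted -0.86). Atf3, a stress-responsive member, rose by 2.90 ± 0.36 and Fosb by 1.73 ± 0.29, while the neuronal gene Arc was lower (-1.15 ± 0.19). None of the mitochondrially encoded mRNAs has a row in the table used here.

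The genes with the largest fold changes were drawn from several of these groups. Above a mean log2 CPM of 4 and with groups that did not overlap, the 10 highest included Mt2, Hotairm1 (4.71 ± 0.41), S100a4, S100a13, Fmc1 (4.48 ± 0.18), Cd52 (4.40 ± 0.22), Htra1, Nkain4 (4.25 ± 0.24) and Dpm3 (4.18 ± 0.20). Cd52 encodes a small surface glycoprotein of leukocytes and microglia. The transcripts of the 10 ranged from 251 to 2621 bases. The 10 lowest included Hecw1, Dmxl1, Gdap1, Nwd2, Fnip1, Fut9, Mbnl1, Plcxd2 and Lmo7, and the 10 had transcripts from 3900 to 12166 bases. Hecw1, a ubiquitin ligase gene, had 1 count over the HA libraries, which gives a ratio of 412 in favour of IgG (95% counting interval 73.7 to 16308). That interval also leaves out the spread between mice. Mbnl1, a splicing factor gene, lay at -6.33 ± 0.59.

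Enrichment over IgG differed between the Sall1 and Cx3cr1 lines for 3965 of 12308 genes (32.2%), with 18.5% higher and 13.7% lower in the Sall1 line. This was tested as an interaction of line and antibody over the 16 homogenate libraries, and a difference below is the Sall1 fold change minus the Cx3cr1 fold change. The Cx3cr1 libraries held 286418 to 574671 gene counts in HA and 2200897 to 2470411 in IgG. Each Cx3cr1 HA library was thus shallower than any of the 8 Sall1 libraries, and the part of this depth in the differences was not tested. Counts of list members cover those that also passed the low-count filter in the 8 Sall1 libraries. Every one of the 14 astrocyte metabolism genes had the higher enrichment in the Sall1 line (median difference 3.24), as had 18 of 18 myelin genes (median 3.09) and all 3 metallothioneins tested. The differences were 4.11 ± 0.23 for Mlc1, 3.82 ± 0.36 for Mog, 3.51 ± 0.27 for Olig1 and 4.36 ± 0.25 for Mt2 (largest adjusted p of the 4, 1.33e-08). In the Cx3cr1 line these genes lay at -0.68 ± 0.17, -0.37 ± 0.29, -0.33 ± 0.20 and 0.31 ± 0.17. Mfsd2a differed by 4.59 ± 0.51 and Slc32a1 by 1.88 ± 0.23, so that these exceptions within the endothelial and inhibitory lists also had more enrichment in the Sall1 line.

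Not every gene of a glial list differed in the same direction. Apoe did not pass the test of a difference (-0.06 ± 0.21, adjusted p = 0.873), which does not show that its enrichment was equal. Cst3, the gene of cystatin C, differed by -2.06 ± 0.23 and Sparc, a matrix protein gene, by -1.05 ± 0.28, both lower in the Sall1 line. Microglia are also known to express Apoe, Cst3 and Sparc. The astrocyte secreted list took 7.06 ± 0.305% of gene counts in Cx3cr1 HA, beside the 4.05% in Sall1 HA. Trf, the transferrin gene listed with oligodendrocytes, differed by -0.22 ± 0.28 (adjusted p = 0.594).

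Macrophage genes had less enrichment in the Sall1 line. All 30 homeostatic microglia genes tested were lower (median -3.42), including Sall1 itself (-2.19 ± 0.35), P2ry12 (-3.68 ± 0.48), P2ry13 (-3.93 ± 0.40) and Gpr34 (-4.24 ± 0.65). Their share of gene counts was 10.5 ± 0.438% in Cx3cr1 HA. All 6 MHC class II genes tested were lower too, among them H2-Aa (-6.68 ± 0.60). Border macrophage genes other than Stab1 did not pass the filter in the Sall1 line, and no count is given for them. Among neuronal lists, 4 of 18 pan-neuronal genes and 2 of 12 glutamatergic genes were higher and 0 and 2 lower. Of the GABAergic genes 8 of 16 were higher and 0 lower (median 1.02), and of the neuropeptide and hormone genes 5 of 15 were higher and 0 lower (median 1.09). Of the cytosolic ribosomal protein genes 2 were higher and 12 lower of 80, shares near or below the background of this test. Respiratory chain genes lay above that background, with 29 of 36 complex I genes higher and 0 lower (median 1.09) and 21 of 27 genes of complexes II to IV higher and 1 lower. ATP synthase genes were higher in 9 of 16 cases and mitochondrial ribosomal protein genes in 27 of 76, with 0 lower. The 10 genes with the highest difference above the expression minimum included Klk6 (4.62 ± 0.39).

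**Figure D5:**
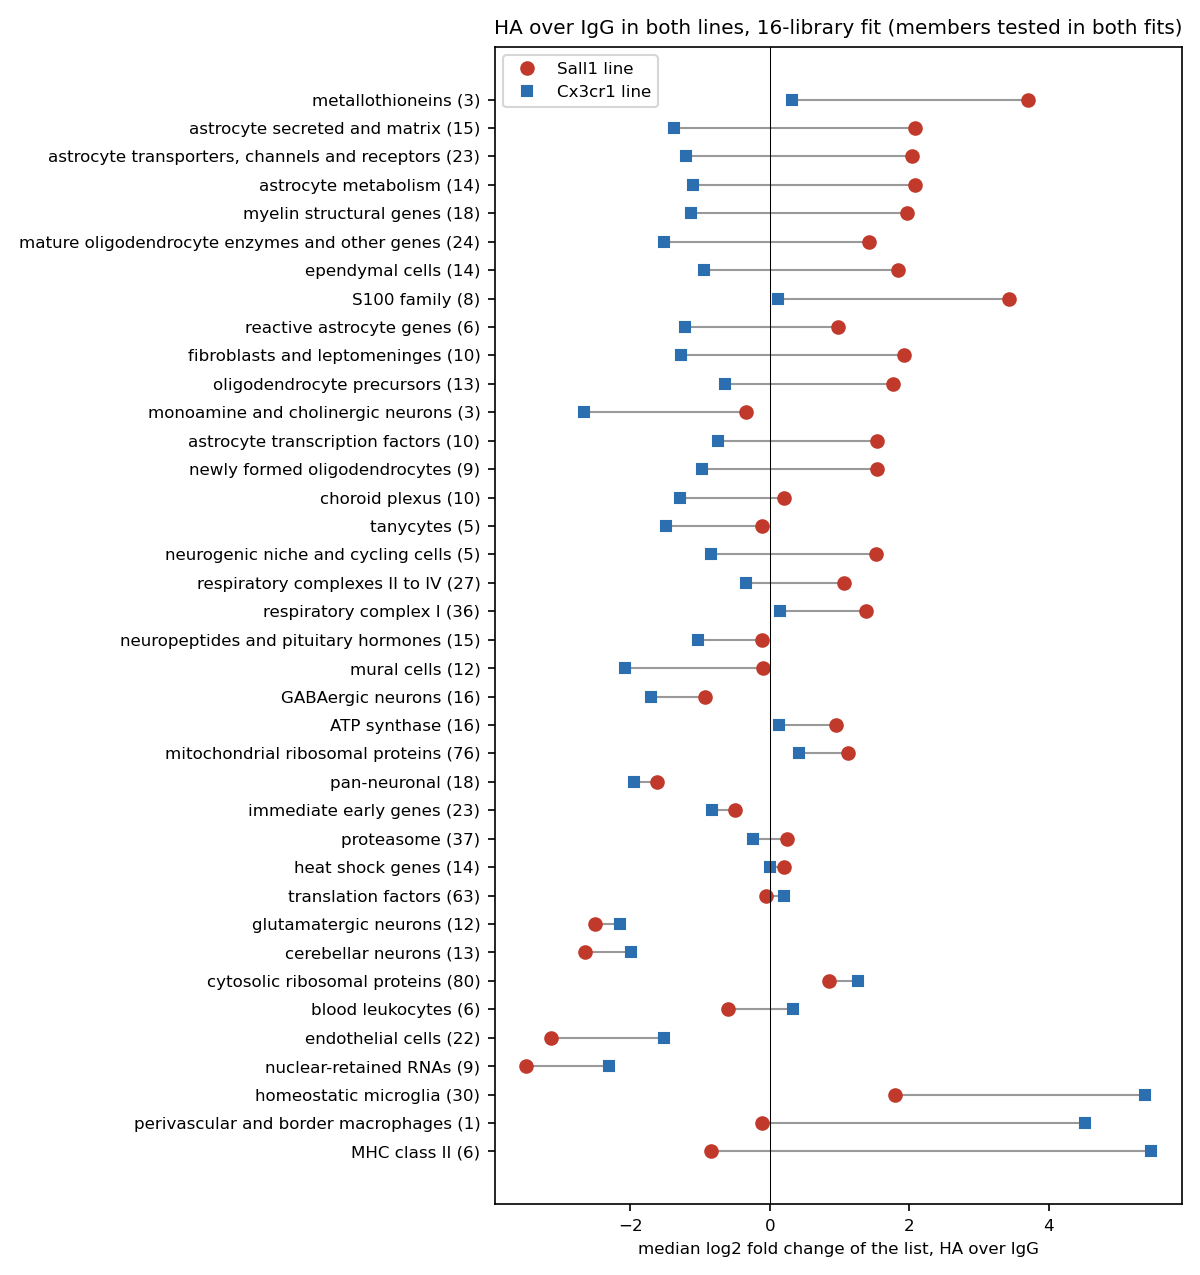
Median log2 fold change of HA over IgG for each gene list in the Sall1 line (red circles) and the Cx3cr1 line (blue squares), from the fit over 16 homogenate libraries (in parentheses, the number of members tested in both this fit and the Sall1 comparison). Astrocyte, myelin and metallothionein lists lie further right in the Sall1 line, and microglia and MHC class II lists in the Cx3cr1 line.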

How the data were processed

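RNA-seq gene counts of mouse brain precipitates were analysed. The authors deposited raw read counts per RefSeq gene. The tools named in the submitters' processing notes are bcl2fastq, HISAT 0.1.5 and HOMER, with the build mm9. The sources used here do not give the strand setting or the treatment of reads with several hits. The table holds 24411 genes. From these counts, genes passing filterByExpr (minimum count 10) were fitted with edgeR 4.0.16 in R 4.3.3 (TMM scaling, robust quasi-likelihood, Benjamini-Hochberg adjustment) on the 8 libraries, without a block. The line difference was the interaction over 16 homogenate libraries. SE is the size of the fold change over the square root of F. Ranges of depth are given above, and the number of counts limits the precision of low genes.

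HA and IgG libraries with the same number come from the same mouse. Correlations of their deviations from the group means were -0.029, 0.091, -0.046 and 0.094, and the fit with the mouse as a block is an alternative. The adjusted fits use splines of transcript length (and GC content, known for 97.7% of genes) as offsets in edgeR with the mouse as a block. DESeq2 1.42.0, median-ratio size factors, no scaling, no filter, all 8 groups and leaving out each library were also tried. Replicates differed beyond sampling noise in all 12 pairs (chi-square per degree of freedom 3.63 to 13.6). Fits were tested on simulated data: the main fit recovered 81% of genes changed by 1 on the log2 scale and 94% of those changed by 2 (11545 genes), and the line difference fit 25% and 83% (12308 genes). There, all genes had the same added spread between replicates and 100 genes changed at each size, whereas most genes differed in the data used here. These rates therefore do not give the power of the fits on the real counts.

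Genes were eligible for naming if they were Mlc1, Mog, Olig1, Mt2, Sall1, Rpl22 or Cx3cr1; the 4 members of a list with the highest CPM per kb; up to 3 called members of the smallest adjusted p that moved against the list's median; members of lists of at most 14; or among the 10 called genes with the highest or lowest change above a mean log2 CPM of 4. Additions are marked in the text. Some eligible genes are not reported here. The members and lists were chosen with earlier results of these data known.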

Additional observations from a re-analysis of the deposited data

Results flagged for a closer look

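Single libraries stood apart from the other 3 of their group in 16 of 358 groups of values examined, and chance alone marks about 1 in 20 such groups. HA of mouse 21 was the distant library for 10 of them. Its CPM lay above the other HA libraries for Ccdc153 (76.0), Hecw1 (0.384), Kl (4.99), Nkain4 (638), Rgs5 (26.1) and Tbr1 (2.69), and below them for Dpm3 (577) and Rpl41 (1077). Its share of gene counts was high for myelin structural genes (1.56%) and low for ATP synthase genes (1.08%). HA of mouse 9 was low for Slc6a13 (61.1 CPM) and alone had a count for Dmxl1 (0.485 CPM). IgG of mouse 7, the shallowest of the 8 libraries, was high for Hspb8 (45.3 CPM) and Slco1a4 (18.9 CPM) and low for the border macrophage genes (0.00284% of gene counts). IgG of mouse 17 was high for C1qb (150.2 CPM).

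Enrichment over IgG differed between the Sall1 and Cx3cr1 lines in the interaction test for 14 of the genes named with a line difference. On the log2 scale the Sall1 line was higher for Klk6 (4.62), Mfsd2a (4.59), Mt2 (4.36), Mlc1 (4.11), Mog (3.82), Olig1 (3.51) and Slc32a1 (1.88). It was lower for H2-Aa (-6.68), Gpr34 (-4.24), P2ry13 (-3.93), P2ry12 (-3.68), Sall1 (-2.19), Cst3 (-2.06) and Sparc (-1.05). None of these 14 differences lost its call under the alternatives run or without any 1 library.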

How the results depend on the processing

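Between 7486 and 9457 genes were called for HA against IgG under the alternatives that kept all libraries, beside 8230, and between 3893 and 4636 for the difference between lines, beside 3965. With the mouse as a replicate block the counts were 8280 and 4151, and 8133 of the 8230 calls were kept. Among the genes named, the block changed the call of Glul only. Pdgfra, Cspg4, Aqp4, Gja1 and P2ry6 were left out of the checks of single genes. Leaving out 1 library gave 7850 to 8391 calls (3831 to 4138 higher, 4019 to 4253 lower) and 3630 to 4283 for the line difference (2052 to 2346 higher, 1505 to 1937 lower). Without scaling, 34.6% of the calls were higher, and with all 8 groups 69.2% of the line differences were. Adjustment for length turned the direction of Slc4a4 (0.44), Nfia (0.55), Nfix (0.26), Neat1 (0.46), Rpl41 (-0.19) and Rps15 (-0.77). Adjustment for GC content and length turned Slc4a4 (0.22), Nfia (1.01), Neat1 (0.31), Rpl41 (-0.43), Rps15 (-0.92) and Ly6e (-0.30), and called 382 genes in the opposite direction. The cause was not tested. With that adjustment Penk, Ramp2, Higd1b, H2-DMb1 and Nfix were not called (adjusted p = 0.771, 0.870, 0.330, 0.221 and 0.455). With all 8 groups Glud1, Ly6e, H2-Aa and Hba-a1 were not called (adjusted p = 0.0525, 0.0580, 0.0982 and 0.343). Glul was called without the low-count filter (0.0226) and adjusted for length (0.0321), and Hbb-b1 without scaling (0.00183) and adjusted for length (1.43e-08). Genes with few HA counts rest on the depth of the shallowest libraries, and antisense and copied genes on a counting rule not given in the sources used here.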
